A study of Mus musculus with 4 samples.

Results

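The genes described here encode nuclear receptors and coactivators that set how much fat a heart muscle cell burns and how many mitochondria it builds. They are the peroxisome proliferator-activated receptors (PPARs: Ppara, Ppard, Pparg), the retinoid X receptors Rxra and Rxrg, the oestrogen-related receptors (ERRs: Esrra, Esrrb, Esrrg) and the PGC-1 coactivators Ppargc1a and Ppargc1b. The rule that chose them used their names and no values, though it was set with earlier results of these data known. Of these 10 genes, 8 had a probe set with that symbol, 1 each, among 19505 named genes, and Ppard and Esrra were not analysed here. Of the 8, 7 passed the filter on low values described below, and Esrrb did not.

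PPARs bind fatty acids and their derivatives, pair with an RXR on DNA and switch on genes of lipid uptake, storage and oxidation. ERRs are orphan receptors that bind DNA at genes of the tricarboxylic acid cycle and the respiratory chain. The PGC-1 proteins bind no DNA themselves and activate transcription by docking onto PPARs, ERRs and other factors. In the mammalian heart this network is known for the change after birth from glucose and lactate to fatty acids as the main fuel.

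Heart RNA of outbred ICR (Jcl:ICR) mice had been hybridised to 4 Clariom S arrays, 1 for each of 4 groups. At postnatal day 1 the pups received 5 µl of either phosphate-buffered saline (PBS) or a viral vector preparation carrying Tbx6, a T-box transcription factor of the embryonic mesoderm. Hearts were taken 7 or 30 days later, which gave the groups PBS at day 7, Tbx6 at day 7, PBS at day 30 and Tbx6 at day 30. One label field has the injection beneath the dorsal skin, and another speaks of introduction into the heart. Not given in the sources used here are the kind of virus, the promoter driving Tbx6, the animals' sex and how many hearts went into an RNA sample. Controls received PBS and no empty vector, so effects of Tbx6 and of the vector itself cannot be told apart.

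Values are log2 expression values as deposited, so a difference of 1 is a doubling. A reading at or below the highest of the array's 23 background probe sets (5.77 to 6.05 on the log2 scale) is called at background. Days were compared with limma, with injection as a second term, over the 9753 genes whose mean reached the median of all genes (5.30). The threshold was a Benjamini-Hochberg adjusted p of 0.05. The words rose and fell are kept for genes that passed. The fit leaves 1 residual degree of freedom, so its standard errors (SE) rest almost wholly on variance borrowed from other genes. With 1 array in each group, a difference between 2 single arrays has no test and is set against a size of 1.5-fold.

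The heart label was borne out by its defining markers. All 10 heart muscle markers, Myh6, Tnnt2 and Ryr2 among them, were far above background on each array, and Atp2a2 stood at the highest value of the table, 19.93, on all 4. Of the fast skeletal muscle markers, 8 of 8 were at background on all 4 arrays. The PBS array of day 7 stood apart in airway genes, with Scgb1a1 at 12.89 against 2.94 to 4.43 on the other arrays. It also stood apart in the brown fat gene Ucp1, at 11.92 against 5.69 to 8.34, but not in the other brown fat markers. Cidea read 8.45 on it against 7.88 to 8.98, and Cox8b 14.02 against 13.77 to 14.96. Elovl3, Prdm16 and Otop1 were at background on all 4 arrays.

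The first comparison set day 30 against day 7 and asked how this regulatory network changed as the heart matured. Among the receptors, Rxrg, Ppara, Pparg and Esrrg rose, by 1.77-fold to 4.0-fold. Of the coactivators, Ppargc1b fell 2.46-fold, while Ppargc1a did not pass the test. In all, 4 of the 7 tested regulators rose and 1 fell, where 14.2% and 12.1% of all 9753 tested genes did, and 26.3% changed in either direction. Both arrays of day 30 lay above both of day 7 for 5 of the 7 and below for 1, against 32.7% and 33.5% of tested genes (66.2% in either direction). Between the single PBS arrays 4 of 7 were at least 1.5-fold higher at day 30 and 1 lower, where 21.9% and 21.5% of tested genes were (43.4% in either direction). Between the Tbx6 arrays 4 were higher and 1 lower, against 22.9% and 21.2% (44.1% in either direction). The median change was 0.82 on the log2 scale for the 7 regulators and -0.02 for all tested genes.

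**Figure D1:**
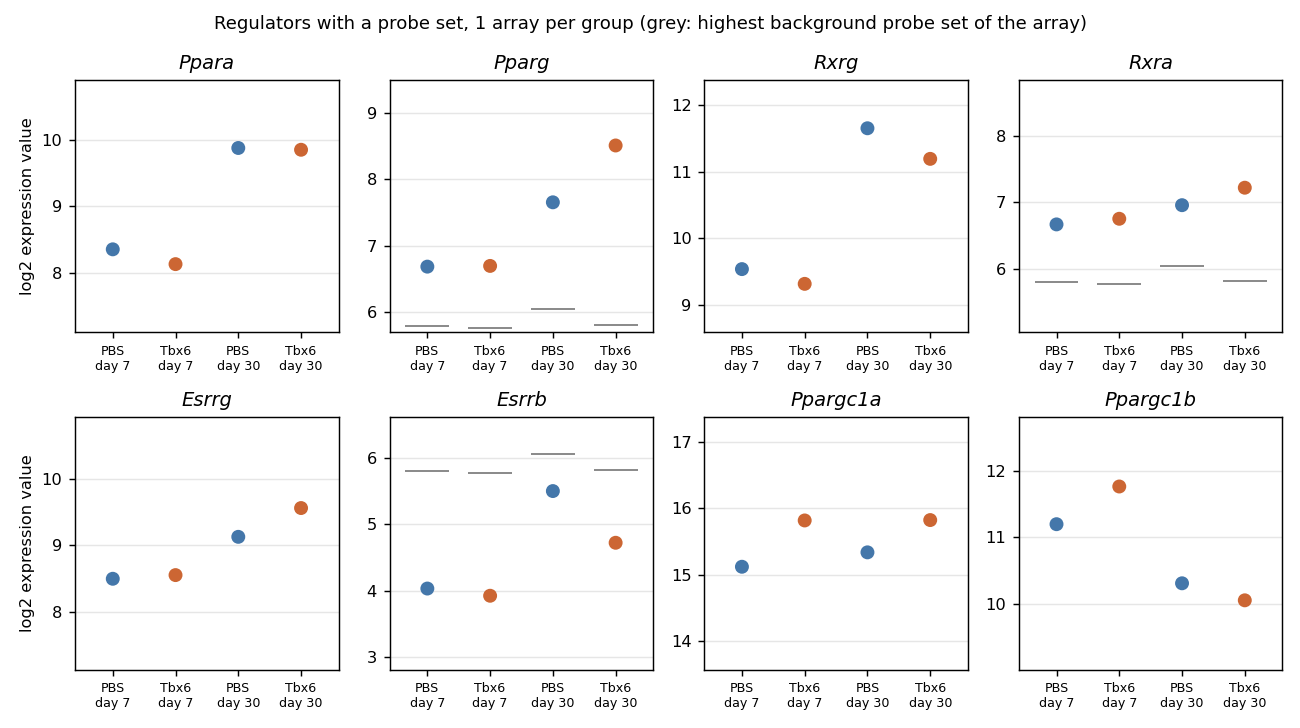
Deposited log2 value (vertical axis, the same span of 3.8 log2 units in each panel) of the 8 regulators with a probe set on the 4 arrays (horizontal axis), 1 point per array, blue for PBS and orange for Tbx6, with grey bars at the highest background probe set of the array. Rxrg, Ppara, Pparg and Esrrg are higher on both arrays of day 30, Ppargc1b is lower on both, and Ppargc1a is higher after Tbx6 on both days.

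Ppara encodes the PPAR that is most active in heart muscle, the receptor of fatty acid oxidation genes. At day 7 its values were 8.35 with PBS and 8.13 with Tbx6, and at day 30 they were 9.88 and 9.85. Both arrays of day 30 lay above both of day 7, and the 2 injections lay close together on each day. Ppara rose by 1.62 (SE 0.24) on the log2 scale, or 3.08-fold, with an adjusted p of 0.00219 by limma. The change was 1.52 within PBS and 1.72 within Tbx6, and the call held in all 11 alternative fits, with adjusted p from 0.000732 to 0.0177.

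Pparg encodes the receptor that drives fat cell formation, and it is also made by macrophages and endothelial cells. The PBS and Tbx6 arrays gave 6.69 and 6.70 at day 7, then 7.66 and 8.51 at day 30. The groups of the 2 days did not overlap, and the Tbx6 array of day 30 stood above the other 3. Pparg rose by 1.39 (SE 0.28), or 2.62-fold, with an adjusted p of 0.00875 by limma. Without the Tbx6 array of day 30 the change was 0.96 and the call was lost (adjusted p = 0.0725 by limma).

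Other cell types moved with that array and with the day. The log2 values of the 8 fat cell markers with a probe set, readings at background included, were summed on each array. They came to 57.9 on the PBS array and 67.8 on the Tbx6 array of day 30, against 60.4 and 54.4 at day 7. Among them the fat hormone gene Adipoq stood at 7.49 on the PBS array and 9.83 on the Tbx6 array of day 30, while Plin1 and Lep were at background on all 4 arrays. Fabp4, the marker with the highest values, read 16.46 (PBS) and 16.70 (Tbx6) at day 30, against 17.10 and 17.06 at day 7. Of the 5 tested fat cell markers 1 rose, Retn, and 0 fell. The log2 values of the 8 macrophage markers, summed likewise, came to 52.8 to 54.0 at day 7 and 65.5 to 69.2 at day 30, and 6 of 8 rose. Of 7 endothelial markers, Cdh5 and Kdr fell, and without either array of day 30 0 did. Larger shifts with the day lay in fibroblast and proliferation markers. Of 6 fibroblast markers 5 fell, with a median change of -2.35 over the 6, -3.57 for the collagen gene Col1a1 and -4.57 for the matrix gene Postn. All 4 tested proliferation markers fell, and Mki67, a gene of dividing cells, fell by 4.58 or more. The part of these cell types in the changes of Pparg and the other regulators was not tested. In whole-heart RNA, more cells of a type and more RNA per cell cannot be told apart.

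Rxrg encodes the RXR that is enriched in skeletal and heart muscle. Under PBS it went from 9.53 at day 7 to 11.65 at day 30, and under Tbx6 from 9.31 to 11.19. This was the largest change among the regulators, with a rise of 2.0 (SE 0.25), or 4.0-fold (adjusted p = 0.000804 by limma). It was 2.12 within PBS and 1.88 within Tbx6 and kept its call in all 11 alternatives. Rxra encodes the widely expressed RXR and showed a smaller difference. It read 6.67 and 6.75 at day 7 and 6.96 and 7.22 at day 30, PBS first, and its change of 0.38 (SE 0.24) did not pass (adjusted p = 0.285 by limma). Rxrb, the third RXR gene, read 6.27 to 6.43 on the 4 arrays and had a change of 0.11 (SE 0.24), which did not pass either. Whether Rxrg differed in its change from Rxra or Rxrb was not tested.

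Promoter windows are shown because receptors of this family bind variants of the core motif AGGTCA, and several regulate their own or each other's genes. The RefSeq table (GRCm38.p6) gave windows from 250 bases before to 50 bases after an annotated start. Windows of 9 of the 10 genes were searched, 1 to 4 each and 17 in all, and no window of Ppargc1b was used. The core motif was searched on both strands, alone, as the ERR element TCAAGGTCA that contains it, and as a direct repeat of 2 core motifs with 1 base between them. It stood in 4 of the 17 windows, in 2 of 3 of Pparg, 1 of 2 of Rxrg and 1 of 2 of Rxra. Of all 32851 windows of this length, 16.3% held it, so the share among the regulators is a description only. Neither the ERR element (0.423% of all windows) nor the direct repeat (0.0396%) stood in any of the 17. Shown are the windows of receptors that rose and that hold the core motif, in capitals, with the window of Ppara. They were chosen for their match: the 4 windows of Esrrg and the other windows of Pparg and Rxrg held none and are not printed. Each lies on the plus strand and is read 5′ to 3′.
Pparg, chr6:115360894-115361193: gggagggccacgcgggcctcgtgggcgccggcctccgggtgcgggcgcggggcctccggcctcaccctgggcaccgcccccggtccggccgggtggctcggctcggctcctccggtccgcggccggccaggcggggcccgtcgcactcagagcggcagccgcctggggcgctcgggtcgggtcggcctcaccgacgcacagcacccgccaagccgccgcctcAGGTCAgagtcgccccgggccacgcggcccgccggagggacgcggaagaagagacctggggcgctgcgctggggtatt
Pparg, chr6:115362099-115362398: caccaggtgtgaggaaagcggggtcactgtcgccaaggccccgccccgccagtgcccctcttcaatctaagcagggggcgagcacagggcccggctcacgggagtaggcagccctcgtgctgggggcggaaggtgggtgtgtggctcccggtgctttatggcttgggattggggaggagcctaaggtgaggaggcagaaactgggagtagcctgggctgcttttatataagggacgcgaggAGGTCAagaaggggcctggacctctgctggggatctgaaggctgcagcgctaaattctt
Rxrg, chr1:167618015-167618314: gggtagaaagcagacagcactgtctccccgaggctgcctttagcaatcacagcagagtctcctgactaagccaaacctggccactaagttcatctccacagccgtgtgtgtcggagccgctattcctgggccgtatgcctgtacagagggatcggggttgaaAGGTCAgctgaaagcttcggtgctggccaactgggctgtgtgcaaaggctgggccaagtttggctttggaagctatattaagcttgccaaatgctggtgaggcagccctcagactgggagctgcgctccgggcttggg
Ppara, chr15:85735526-85735825: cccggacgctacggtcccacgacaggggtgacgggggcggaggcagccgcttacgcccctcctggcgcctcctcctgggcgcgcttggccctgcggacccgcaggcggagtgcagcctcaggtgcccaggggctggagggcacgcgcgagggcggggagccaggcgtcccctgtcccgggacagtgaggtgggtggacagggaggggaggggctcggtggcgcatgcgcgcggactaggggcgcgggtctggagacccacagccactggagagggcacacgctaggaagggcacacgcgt

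In Pparg the core motif began 28 bases before the start of the first window and 9 bases before that of the second, and in Rxrg it began 88 bases before the start. The only window of Ppara, shown beside them, held none of these letters in this order. Matches of this kind are descriptions of the sequence and say nothing about which factor bound there.

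Among the ERR genes, Esrrg encodes the receptor that is abundant in oxidative tissues such as heart and slow muscle. Its values at day 7 were 8.49 (PBS) and 8.55 (Tbx6), against 9.12 and 9.56 at day 30. The 2 days did not overlap, but the change of 0.82 (SE 0.25), or 1.77-fold, lay close to the threshold (adjusted p = 0.0427 by limma). The call was lost without any 1 of the 4 arrays (changes of 0.60 to 1.04, adjusted p of 0.0582 to 0.211) and with quantile normalisation (adjusted p = 0.0512). Esrrb, the receptor of early embryonic and stem cells, read 4.03, 3.92, 5.50 and 4.72 in the order PBS and Tbx6 at day 7, then PBS and Tbx6 at day 30. Each reading was at background, so no difference is given for it.

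Of the coactivator genes 0 rose and 1 fell. Ppargc1a encodes PGC-1 alpha, the inducible coactivator of fasting, cold and exercise. Under PBS it read 15.12 at day 7 and 15.33 at day 30, and under Tbx6 15.81 and 15.82. The 2 days overlapped, and the change of 0.11 (SE 0.24) did not pass (adjusted p = 0.77 by limma). Its sign turned in some alternatives, which ran from -0.24 to 0.46.

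Ppargc1b encodes PGC-1 beta, the close relative that also serves ERRs and mitochondrial biogenesis. Day 7 gave 11.20 with PBS and 11.76 with Tbx6, and day 30 gave 10.31 and 10.05. Both arrays of day 30 lay below both of day 7. Ppargc1b fell by 1.30 (SE 0.28) on the log2 scale, with an adjusted p of 0.0112 by limma. The change was -0.89 within PBS and -1.71 within Tbx6. Without the Tbx6 array of day 30 it was -1.17 and the call was lost (adjusted p = 0.0681 by limma). The change of Ppargc1a exceeded that of Ppargc1b by 1.11 within PBS and by 1.72 within Tbx6, a difference between their changes that was not tested.

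Without the Tbx6 array of day 30, only Rxrg and Ppara of the 7 regulators kept their calls, and over all tested genes the calls dropped from 2562 to 1248. Without the PBS array of day 30 they dropped to 1402, with 4 regulators called.

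**Figure D2:**
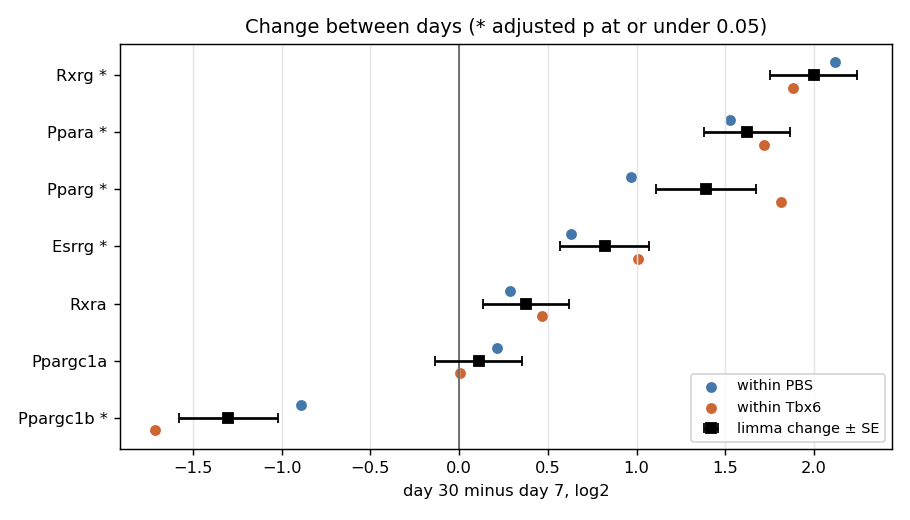
Change from day 7 to day 30 on the log2 scale (horizontal axis) of the 7 tested regulators (vertical axis), as the limma estimate with its SE (black squares and bars) and as the difference between single arrays within PBS (blue) and within Tbx6 (orange). An asterisk marks an adjusted p at or under 0.05, and the within-PBS and within-Tbx6 points share their sign for every regulator shown.

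Partner receptors and coregulators were followed through a list of 26 genes with a probe set, of which 24 were tested. In this list 5 rose and 1 fell (20.8% and 4.2%, against 14.2% and 12.1% of all tested genes). The median change was 0.17 (0.09 to 0.10 without single arrays). Lpin1, which encodes lipin 1, a phosphatidate phosphatase that also coactivates PPAR alpha, read 10.48 and 10.70 at day 7 and 12.75 and 13.01 at day 30, PBS first. It rose by 2.29 (SE 0.24, adjusted p = 0.000411 by limma). Klf15, a transcription factor of fasting metabolism, was at background throughout day 7 and read 7.21 (PBS) and 8.08 (Tbx6) at day 30, a rise of at least 1.86. Perm1, a muscle gene induced by PGC-1 and ERR, rose by 1.09 (SE 0.25, adjusted p = 0.0147).

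Prkaa2, the AMP-activated kinase subunit of muscle, rose by 0.91 and Cited2, a coregulator of CBP and p300, rose by 1.06. Crebbp, which encodes the acetyltransferase CBP, fell by 1.15 (SE 0.24, adjusted p = 0.0103 by limma). Rxrb, Nrip1, a corepressor of oxidative genes, at 0.15 (SE 0.26), and the coactivator genes Ncoa1, Ncoa2 and Ncoa3 did not pass. Pprc1, the third PGC-1 family gene, was at background on all 4 arrays. Without the Tbx6 array of day 30 the calls of Perm1 (adjusted p = 0.0993), Cited2 (0.263), Prkaa2 (0.0828) and Crebbp (0.0539) were lost, which left 2 genes that rose and 0 that fell. There the change of Cited2 was 0.56, while those of Perm1 (0.85), Prkaa2 (0.92) and Crebbp (-1.10) stayed within 1.5 times of their values with all arrays. Cited2 was also lost without either array of day 7 (0.0699 and 0.14), and Prkaa2 without the Tbx6 array of day 7 (0.063) or the PBS array of day 30 (0.0857).

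Among other nuclear receptors that pair with an RXR, 2 of 9 tested genes rose and 2 fell. That was 22.2% each, against 14.2% and 12.1% of all tested genes. The median change was 0.35 (-0.15 to 0.67 without single arrays). Nr1h3, which encodes the oxysterol receptor LXR alpha and is abundant in macrophages, rose by 1.65 (SE 0.25, adjusted p = 0.00207 by limma). The thyroid hormone receptor gene Thrb rose by 1.42, while Thra fell by 1.03 and the retinoic acid receptor gene Rara fell by 1.02. Without the PBS array of day 30 the calls of Thra (adjusted p = 0.0882) and Rara (0.102) were lost. That of Thra was also lost without either Tbx6 array (0.0652 at day 7 and 0.0615 at day 30).

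Mitochondrial transcription and biogenesis factors, which act downstream of PGC-1, were tested for 16 of 18 genes. Of these 5 rose (31.25%) and 0 fell, against 14.2% and 12.1% of all tested genes, with a median of 0.28. Without single arrays 2 or 3 rose and 0 or 1 fell, with medians of 0.15 to 0.40. Tfb2m, a mitochondrial transcription factor, rose by 1.92 (SE 0.28, adjusted p = 0.00202 by limma), and its relative Tfb1m, an rRNA methyltransferase, by 1.19. The mitochondrial fusion genes Mfn1, Mfn2 and Opa1 rose by 1.20, 0.88 and 0.89. Nrf1 and Gabpa, the nuclear factors through which PGC-1 acts on respiratory genes, had changes of -0.90 (SE 0.29) and -0.76 (SE 0.25), short of the threshold (adjusted p = 0.0535 and 0.0547). Tfam, which packages mitochondrial DNA, had a change of -0.64 (SE 0.25, adjusted p = 0.0884), which ran from -1.09 to -0.19 without single arrays and passed in none of those fits.

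Of these 5 that rose, Tfb2m and Mfn1 kept their calls without any 1 array. Tfb1m was lost without the PBS array of day 7 (adjusted p = 0.0659 by limma), the PBS array of day 30 (0.0901) or the Tbx6 array of day 30 (0.0622). Mfn2 was lost without any 1 array (0.0571 to 0.113), and Opa1 without the Tbx6 array of day 7 (0.0929) or either array of day 30 (0.0678 and 0.14). Nrf1 passed the threshold without the PBS array of day 7 (-1.14, adjusted p = 0.0348), with the filter on background (0.0432), with median centring (0.0488), with a variance trend (0.0467) and with day as the 1 term (0.0494). Gabpa passed with the filter on background (0.0458), quantile normalisation (0.0498) and the variance trend (0.0239).

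Among known target genes of PPAR alpha and delta, 11 of 31 tested rose and 4 fell, with a median change of 0.43. These shares were 35.5% and 12.9%, against 14.2% and 12.1% of all tested genes. Enzymes of the oxidation pathway were among those that rose: Cpt2, the inner-membrane carnitine transferase, by 2.12 (SE 0.24, adjusted p = 0.000589 by limma) and Decr1, a reductase for unsaturated fatty acids, by 1.41. Ehhadh, a peroxisomal enzyme at background on both arrays of day 7, rose by at least 0.98, and Pnpla2, the triglyceride lipase ATGL, and Acadm, the medium-chain dehydrogenase, rose by 0.94 each. Slc27a1, a fatty acid transport protein, rose by 0.93. Angptl4, which encodes an inhibitor of lipoprotein lipase, fell by at least 1.49, Pdk4, a kinase that inactivates pyruvate dehydrogenase, fell by 1.40 (SE 0.44), Cpt1a, the liver-type carnitine transferase, fell by 1.03 and Ucp3, a mitochondrial uncoupling protein, fell by 1.01.

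The reading of Pdk4 after PBS at day 30 stood apart. It read 12.63 and 12.69 at day 7 after PBS and Tbx6, 10.14 after PBS at day 30 and 12.37 after Tbx6 at day 30. Its adjusted p was 0.0489 by limma. Without that array the change was -0.28 (adjusted p = 0.542), and the call was also lost without either array of day 7 (0.189 for PBS and 0.205 for Tbx6). Ucp3 and Cpt1a were also lost without the PBS array of day 30 (-0.61 and -0.75, adjusted p = 0.316 and 0.128). Ucp3 was lost without either Tbx6 array too (0.251 at day 7 and 0.0566 at day 30), and Cpt1a without either array of day 7 (0.0557 for PBS and 0.0539 for Tbx6). Without single arrays 2 to 8 genes of this list rose and 1 to 4 fell, the lowest count of rises being without the Tbx6 array of day 30, where the median was 0.27. There Acadm (adjusted p = 0.115), Ehhadh (0.0702) and Pnpla2 (0.235) lost their calls. Acadm and Pnpla2 were also lost without the PBS array of day 7 (0.0739 and 0.211) or of day 30 (0.0603 and 0.0848). So was Slc27a1 without the PBS array of day 7 (0.31) or either array of day 30 (0.0721 for PBS and 0.364 for Tbx6). Without the PBS array of day 7 the change of Pnpla2 was 0.58 and that of Slc27a1 0.53, and without the Tbx6 array of day 30 that of Slc27a1 was 0.58. With quantile normalisation 6 rose and 3 fell, with a median of 0.18. Cpt1b, the muscle carnitine transferase, had a change of 0.08 (SE 0.24) and Cd36, a fatty acid transporter, of 0.43 (SE 0.24), neither past the test. Fabp3 stood at the highest value of the table on all 4 arrays, where no difference can be read.

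ERR and PGC-1 target genes were tested for 38 genes, of which 16 rose and 2 fell, with a median of 0.61. These shares were 42.1% and 5.3%, against 14.2% and 12.1% of all tested genes. Pdk4 and Acadm are on this list and the PPAR list, and Perm1 is on this list and that of coregulators. Cox7a1, the muscle subunit of cytochrome oxidase, read 13.89 and 14.43 at day 7 and 17.22 and 17.38 at day 30, PBS first, a rise of 3.14 (SE 0.25, adjusted p = 0.000113 by limma). Ckmt2, the mitochondrial creatine kinase of muscle, rose by 2.55 (SE 0.29), Fndc5, the precursor of irisin, by 2.16, Uqcrc2 of complex III by 1.94 and Ogdh of the tricarboxylic acid cycle by 1.53. Kcne1, a potassium channel subunit, fell by 4.97 (SE 0.26, adjusted p = 2.1e-05). Atp5b and Atp5a1, subunits of the ATP synthase, read the same value on all 4 arrays, near the ceiling, and Cycs, which encodes cytochrome c, read 18.51 to 18.65. Without single arrays 9 to 14 genes of the list rose and 1 or 2 fell, the lowest count of rises being without the Tbx6 array of day 30.

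**Figure D3:**
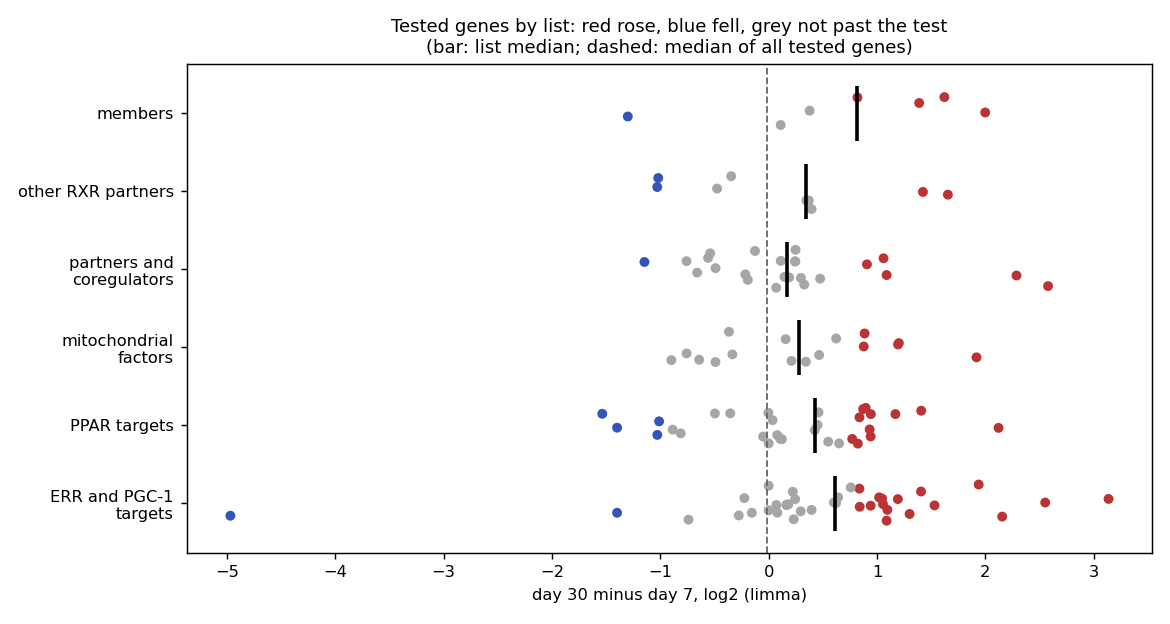
Change from day 7 to day 30 on the log2 scale (horizontal axis) of each tested gene, by list (vertical axis, with points spread vertically for legibility), in red where it rose, blue where it fell and grey where it did not pass limma's test. Black bars mark list medians, 0.82 for the regulators, 0.43 for PPAR targets and 0.61 for ERR and PGC-1 targets, beside the dashed median of all tested genes at -0.02.

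The ERR element was found in the promoter windows of 2 genes of this list, Timm8b and Sdhd, which lie head to head and share it. It is shown because it is the 1 full ERR element found among the windows of the target lists. Capitals mark the element in the window of Timm8b, on the plus strand.
Timm8b, chr9:50603651-50603950: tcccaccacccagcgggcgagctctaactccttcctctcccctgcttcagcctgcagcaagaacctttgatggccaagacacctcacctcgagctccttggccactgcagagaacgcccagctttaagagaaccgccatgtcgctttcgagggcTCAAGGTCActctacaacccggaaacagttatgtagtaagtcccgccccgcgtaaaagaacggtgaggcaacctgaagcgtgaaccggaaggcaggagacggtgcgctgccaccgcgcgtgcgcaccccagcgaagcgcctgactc

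It began 96 bases before the start of Timm8b, which encodes a chaperone of the mitochondrial intermembrane space. Timm8b read 7.04 and 7.40 at day 7 and 8.22 and 7.50 at day 30, PBS first, and its change of 0.64 (SE 0.31) did not pass (adjusted p = 0.156 by limma). Sdhd, a subunit of complex II, had a change of 0.62 (SE 0.24) that did not pass either (adjusted p = 0.0916).

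The second comparison set Tbx6 against PBS and asked whether the vector altered these regulators. Its test takes the difference as the same on both days. An injection effect that differs between days is not estimated and adds to the error of the fit, for injection and for day. None of the 7 tested regulators passed limma's test for injection, as none of the 9753 genes did (0% called), and 1 of 7, Ppargc1a, had an unadjusted p under 0.05, where 4.32% of all tested genes did. Of all tested genes, 2.26% had such a p and a higher estimate after Tbx6, as Ppargc1a did. Between single arrays, 1 of 7 regulators was at least 1.5-fold higher after Tbx6 at day 7 and 0 were lower, against 7.23% and 8.41% of tested genes (15.6% in either direction). At day 30 1 was higher and 0 lower, against 7.13% and 6.06% (13.2% in either direction).

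Ppargc1a was higher after Tbx6 by 0.70 at day 7 and by 0.49 at day 30, or 1.62-fold and 1.40-fold. On each day its Tbx6 array was above both PBS arrays, a pattern whose share over all tested genes was not counted. The estimate was 0.59 (SE 0.24, unadjusted p = 0.0403, adjusted p of 1 by limma). Pparg was level at day 7 (0.01) and higher by 0.85 at day 30. The summed fat cell markers were higher on the PBS array at day 7 (60.4 against 54.4) and on the Tbx6 array at day 30 (67.8 against 57.9). Their part in the Pparg readings was not tested. Ppargc1b was higher by 0.57 at day 7 and differed by -0.26 at day 30.

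The other 4 tested regulators, like Ppargc1b, stayed inside 1.5-fold on both days. Esrrg was higher by 0.06 at day 7 and 0.43 at day 30, and Rxra by 0.08 and 0.26. Ppara differed by -0.22 and -0.03, and Rxrg by -0.22 and -0.46. For 6 of the 7 the sign was the same on both days, Ppargc1b being the exception. The share of all tested genes with the same sign was not counted. Among the 6, Pparg (0.01) and Esrrg (0.06) at day 7 and Ppara (-0.03) at day 30 were nearly level. Whether the differences changed between days was not tested, since no group has a second array.

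**Figure D4:**
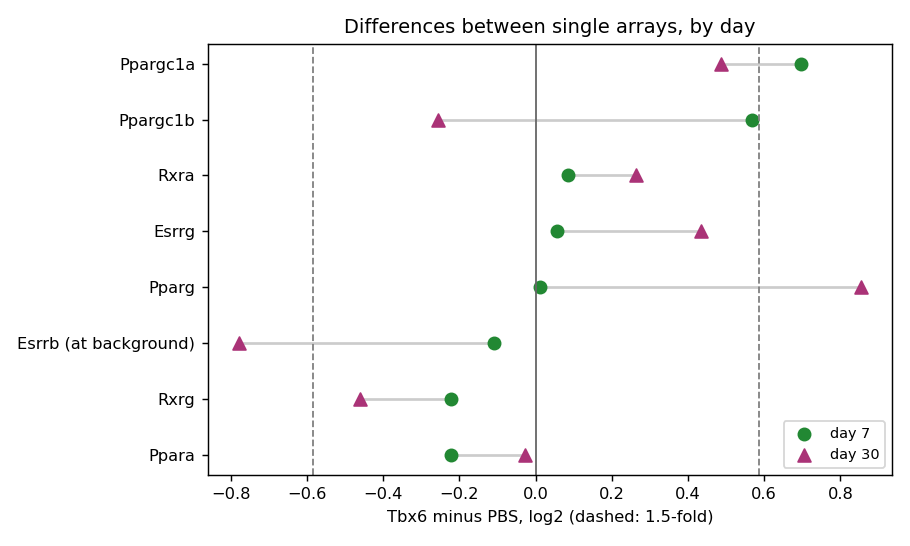
Difference between the Tbx6 and the PBS array on the log2 scale (horizontal axis) for the 8 regulators with a probe set (vertical axis), at day 7 (green circles) and day 30 (purple triangles), with dashed lines at 1.5-fold. Ppargc1a at day 7 (0.70) and Pparg at day 30 (0.85) lie beyond the upper line, and Esrrb is drawn although all its readings were at background.

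Ucp3, Acot2 and Slc27a1 were the PPAR target genes at least 1.5-fold higher after Tbx6 on both days. How many of all tested genes were so on both days was not counted. Of 31 tested, 6 were at least 1.5-fold higher at day 7 and 6 at day 30, and 0 were lower on either day. Over all tested genes 7.23% were higher and 8.41% lower at day 7, and 7.13% and 6.06% at day 30. The median differences of the targets were 0.09 and 0.22, against -0.02 and 0.01 over all tested genes. None of the targets passed the adjusted threshold. Where 4.32% of all tested genes had an unadjusted p under 0.05 by limma, 5 of the 31 targets did. These were Pdk4 (0.06 at day 7 and 2.23 at day 30), Ucp3 (0.76 and 0.79), the thioesterase gene Acot2 (0.79 and 0.75), Slc27a1 (0.80 and 0.70) and Pnpla2 (0.73 and 0.42). Acot1, a cytosolic thioesterase, was higher by 1.10 at day 7 and 0.14 at day 30, and Txnip, a regulator of glucose uptake, differed by -0.09 and 0.99. Among targets above background on both arrays, the lowest differences were -0.25 in Etfdh, an electron carrier enzyme, at day 7, and -0.32 in Eci2, an isomerase of unsaturated fatty acids, at day 30.

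Of the ERR and PGC-1 target genes, 2 of 38 were at least 1.5-fold higher and 0 lower at day 7, and 1 was higher and 1 lower at day 30. Over all tested genes these shares were 7.23% and 8.41% at day 7, and 7.13% and 6.06% at day 30. Ckmt2 was higher by 0.97 at day 7 and by 0.02 at day 30, and Kcnj11, a potassium channel gene, was higher by 1.23 at day 7 and differed by -0.57 at day 30. Timm8b differed by 0.37 at day 7 and -0.72 at day 30, and Fndc5 by -0.54 and -0.49. Among coregulators, Sirt3, the mitochondrial deacetylase, differed by 1.07 at day 7 and -0.26 at day 30, and Cited2 by -0.27 and 1.01. Med1, a Mediator subunit, differed by -0.0043 and -0.69. Klf15 had both readings of day 7 at background and was higher by 0.87 at day 30. Tfam was lower after Tbx6 by 0.63 at day 7 and by 0.90 at day 30 on the log2 scale (unadjusted p = 0.0135, adjusted p of 1 by limma). Nrf1 differed by 0.47 and -0.49, and Gabpa by 0.21 and 0.56. Among other RXR partners, Rarb differed by -0.40 at day 7 and 1.0 at day 30.

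**Figure D5:**
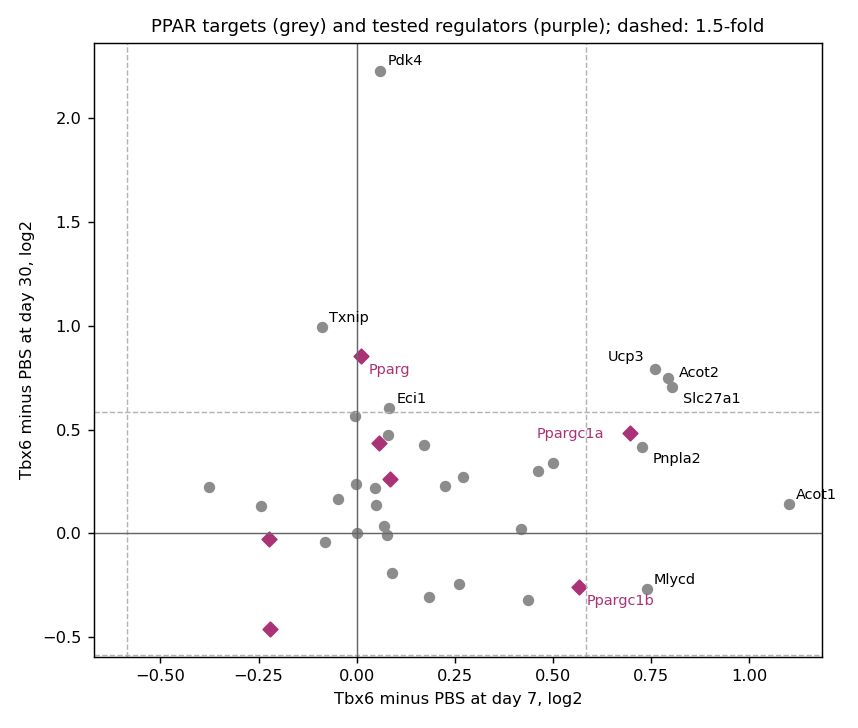
Tbx6 minus PBS on the log2 scale at day 7 (horizontal axis) and day 30 (vertical axis) for the 31 tested PPAR target genes (grey circles) and the 7 tested regulators (purple diamonds), 1 point per gene, with dashed lines at 1.5-fold. Ucp3, Acot2 and Slc27a1 lie beyond 1.5-fold on both days, Pdk4 (2.23), Txnip (0.99) and Eci1 (0.60) at day 30 alone, and Ppargc1a lies at 0.70 and 0.49.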

How the data were processed

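Per the labels, 100 ng of total heart RNA per sample was converted to biotin-labelled single-stranded cDNA and hybridised to 1-colour mouse Clariom S arrays. The deposited log2 values were made with SST-RMA in Affymetrix Expression Console 1.4, per the series' design text and the submitters' processing notes. The base of the logarithm was taken from their range (1.51 to 19.93). Precision is limited by the number of arrays.

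Of 28846 probe sets, 19572 carried 1 gene symbol in the platform annotation and 0 carried several, and all 19572 Entrez identifiers were found in a RefSeq gene table (GRCm38.p6). For the 55 genes with more than 1 probe set, that with the highest mean was kept. The additive model (injection and day) was fitted with limma 3.58.1 in R 4.3.3 (lmFit and eBayes, two-sided) and tested on simulated data. A change with some readings at background is given as at least the difference left after raising them to the highest background probe set.

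The regulators, gene lists and tests were chosen with earlier results of these data known. Named genes are all regulators, up to 5 per direction and list by tested day change, up to 2 per direction, list and day by difference between single arrays, and a fixed set. Sdhd, Acot2, Ncoa1, Ncoa2, Ncoa3, Atp5b, Atp5a1, Scgb1a1 and the markers printed were named after their values were seen. Nothing in the labels says whether samples are single hearts or pools, so p-values cannot be taken to measure the spread between animals. With 1 array in each group, they do not rest on a spread between replicate arrays either. The residual of the fit is the departure of the 4 arrays from additive day and injection terms, pooled over genes. Alternatives were the filter, the normalisation, the variance trend, the probe set rule, models with 1 term and leaving out each array.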

Additional observations from a re-analysis of the deposited data

Results flagged for a closer look

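The difference between injections had opposite signs on the 2 days in Ppargc1b, Adipoq, Cidec, Pck1, Ucp1, Cyp2f2 and Postn. Ppargc1b was higher by 0.57 after Tbx6 at day 7 and differed by -0.26 at day 30. Adipoq differed by -1.91 at day 7 and by 2.33 at day 30, and Ucp1 by -4.32 and 2.65, where the PBS reading of day 30 was at background. Postn differed by -0.60 at day 7 and by 0.69 at day 30. The fat cell marker Cidec differed by -0.96 and 2.02, where the PBS reading of day 30 was at background. The fat cell marker Pck1 (-1.17 and 1.76) and the airway marker Cyp2f2 (-2.69 and 0.71) had 1 reading at background on each day. With those readings raised to the highest background probe set, the differences were -0.12 and 0.09 for Pck1, and -2.40 and 0.26 for Cyp2f2. With 1 array on each side none of these differences between days was tested. For genes other than the regulators, only differences of at least 1.5-fold on both days were taken. Genes with both arrays of a day at background were left out.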

How the results depend on the processing

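Over all tested genes, 1248 to 2067 genes changed between days when 1 array was left out (2562 with all 4), and of the 7 tested regulators 2 to 4 were called (5 with all 4). In those fits day was the 1 term, and the lone array of a day was assumed to vary like the pair. Quantile normalisation left 4 regulators called, and the remaining settings 5, with 4 that rose and 1 that fell. Without the filter, Esrrb was called (adjusted p = 0.0314) although each of its readings was at background, and Esrrg was not (0.0791). No setting run for injection gave a call, over all genes or the regulators. They include leaving out each array with injection as the 1 term, an alternative chosen after seeing the data, in which day and injection are unbalanced. With a size of 2-fold in place of 1.5-fold, the genes past it dropped from 1525 to 276 for Tbx6 minus PBS at day 7 and from 1286 to 209 at day 30, and for day 30 minus day 7 from 4236 to 2002 within PBS and from 4301 to 2113 within Tbx6. No called value changed sign in any setting. The signal limits Esrrb, Pprc1 and the low targets, which were at background, and Fabp3, Atp5b and Atp5a1, which were at or near the ceiling. No paired analysis was possible because each group has 1 array.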
